A study of Homo sapiens with 10 samples.

Results

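SK-Hep1 is a human tumour line derived from a liver cancer patient. It was studied here as a pair of stable lines, one in which the miR-17 family of microRNAs was blocked and one that carried a control. The blocking agent was a tough decoy (TuD), an RNA hairpin with exposed binding sites that captures a microRNA and keeps it from its targets. The comparison set 2 libraries labelled SK-Hep1 TuD (miR-17 TuD) against 2 labelled SK-Hep1 NC TuD (a negative control decoy), chosen by their titles, which makes 4 of the 10 libraries of the series. The other 6 are the same decoys in HepG2, a hepatocyte-like tumour line, with 3 libraries per arm.

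All 4 lines were made the same way. Cells in medium with 10% fetal bovine serum were given virus particles coding for a decoy for 48 h (multiplicity of infection 5), in the presence of 10 µg/mL polybrene. Puromycin at 1 µg/mL then selected resistant colonies for 2 weeks, and the colonies were pooled. No parental, untransduced line is among the samples used. Each arm is therefore 1 stable pool, and the labels do not say whether its 2 libraries came from separate cultures. The p-values measure only the spread between these libraries, and what the decoy did and what differed between the pools for other reasons cannot be told apart.

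The miR-17 family is a set of microRNAs with the same seed, the stretch near the 5′ end that pairs with targets. They are made from several gene clusters, one of them inside an intron of MCM7. A microRNA loaded into Argonaute pairs through its seed with sites in 3′ untranslated regions (3′UTRs), and the paired transcript is translated less and degraded sooner. In tumours the family is known for restraining the TGF-beta receptor gene TGFBR2 and the cell cycle inhibitor gene CDKN1A. The mature forms from RefSeq (GRCh38.p14) are shown because the shared seed, in capitals (bases 2 to 8), defines which sites the family can pair with:
miR-17-5p: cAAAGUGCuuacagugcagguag
miR-20a-5p: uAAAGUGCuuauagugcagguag
miR-20b-5p: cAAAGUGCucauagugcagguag
miR-93-5p: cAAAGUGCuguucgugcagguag
miR-106a-5p: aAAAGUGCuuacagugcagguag
miR-106b-5p: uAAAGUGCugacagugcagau
All 6 carry the seed AAAGUGC. Outside it they differ little, since miR-106a-5p matches miR-17-5p at 22 positions and miR-106b-5p, the least alike, at 18. Mature microRNAs were not measured in these libraries, so which of the 6 the decoy captured is not known from them.

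The letters that pair with this seed are GCACTTT (a 7mer-m8 site), and GCACTTTA adds the A that makes an 8mer, the strongest kind. They were sought on the transcript strand of the longest annotated 3′UTR of each gene in GENCODE 29. An 8mer was present in 5.46% of the 12060 tested genes with such a 3′UTR. A 7mer-m8 was the best site in 2409 genes, a 7mer-A1 (CACTTTA) in 6.41% and a 6mer (CACTTT) in 18.5%, each gene counted once by its best site since the shorter sites lie within the 8mer. Among genes with an 8mer that passed the test, the sites of those with the smallest adjusted p are shown, each as 30 bases on GRCh38, 5′ to 3′ along the transcript, with the 8mer in capitals:
IL8, chr4:73743039-73743068, plus strand: ttgtgaggacatgtggaaGCACTTTAagtt
TGFBR2, chr3:30691849-30691878, plus strand: caatagccaataacatttGCACTTTAttaa
RGMB, chr5:98794000-98794029, plus strand: ccagggacctgttagaaaGCACTTTAtttt
ZNFX1, chr20:49246772-49246801, minus strand: acccctgcgctagagtaaGCACTTTAtctc
ZNFX1, chr20:49245932-49245961, minus strand: tttttttgtctttactatGCACTTTAgctt
MINK1, chr17:4897763-4897792, plus strand: tttcttcattttctgaaaGCACTTTAatga
POLR3G, chr5:90512531-90512560, plus strand: tataatacagcacgtggaGCACTTTAaaaa
CYBRD1, chr2:171555679-171555708, plus strand: ctccaaacactcctctaaGCACTTTAcaca
Every window lies in the 3′UTR of the gene named. In TGFBR2 and RGMB the 8mer begins 268 and 265 bases after the stop codon, in 3′UTRs of 2543 and 2741 bases. In ZNFX1 there are 2 such sites in a 3′UTR of 1370 bases, the second ending 39 bases before the 3′UTR does. STC1, the eighth gene of this set, also holds an 8mer.

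Each of these genes was higher in both miR-17 TuD libraries than in both NC TuD libraries. Levels are in CPM (a gene's counts scaled to a common library size), given with the NC TuD libraries before the miR-17 TuD libraries and replicate 1 before replicate 2. Changes are log2 fold changes ± standard error (n = 2 per arm) with Benjamini-Hochberg adjusted p from edgeR's quasi-likelihood test. TGFBR2, the ligand-binding receptor of TGF-beta, stood at 132 and 135 CPM with the control decoy and at 208 and 200.3 with the miR-17 decoy (0.61 ± 0.04, edgeR adjusted p = 3.62e-12). IL8 (CXCL8), a chemokine that draws neutrophils, went from 109 and 115 to 184 and 173 CPM (0.67 ± 0.04, edgeR adjusted p = 3.62e-12). RGMB, a co-receptor for the bone morphogenetic protein (BMP) ligands, went from 331 and 335 to 443 and 439 CPM (0.40 ± 0.03, edgeR adjusted p = 4.39e-11). In these 3 genes the libraries of an arm lay close together and the gap between arms was several times wider. ZNFX1, a helicase-like gene of antiviral defence, was at 118 and 113 CPM, then 159 and 168 (0.50 ± 0.04). MINK1, a kinase of the JNK pathway, was at 113 and 112, then 159 and 149 CPM (0.45 ± 0.04). CYBRD1, an iron reductase of the membrane, was at 72.9 and 69.8, then 95.2 and 96.4 CPM (0.43 ± 0.05). POLR3G, a subunit of RNA polymerase III, was at 188 and 196, then 240.0 and 241 CPM (0.33 ± 0.04), and STC1, a secreted glycoprotein hormone, at 33.1 and 37.1, then 56.5 and 53.1 CPM (0.64 ± 0.07). IL8, TGFBR2, RGMB, ZNFX1, MINK1 and CYBRD1 were among the 7 of 78 named called genes that kept their call under all 16 alternative settings.

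**Figure D1:**
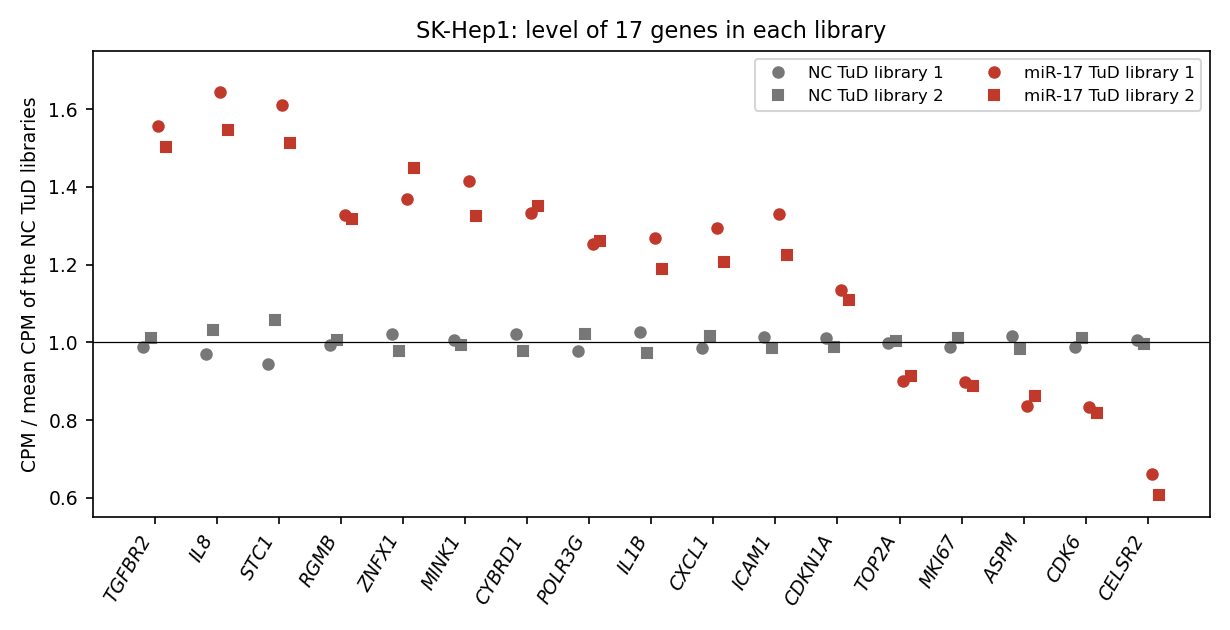
CPM of 17 genes in each SK-Hep1 library divided by the mean of the 2 NC TuD libraries (vertical axis, linear), grey for NC TuD and red for miR-17 TuD, with circles for library 1 and squares for library 2. The red points of each gene lie on one side of its grey points, from TGFBR2 at 208 and 200.3 CPM against 132 and 135, to CELSR2 at 9.43 and 8.66 against 14.3 and 14.2.

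Libraries held 13182664 to 15076431 gene counts, so 1 count is 0.0663 to 0.0759 CPM, and a count of 0 allows up to 3 counts, 0.199 to 0.228 CPM. Over 9883 well-expressed genes, the root mean square distance was 0.111 and 0.117 on the log2 scale within the arms and 0.129 to 0.136 between them. As to cell identity, 8 of 9 mesenchymal markers exceeded 1 CPM in every library, with a summed level of 15143 to 16814 CPM. Only 1 of 10 endothelial markers did, and the defining endothelial genes PECAM1, KDR and ERG had no count in any library, although an endothelial origin of SK-Hep1 has been reported. Of 15 hepatocyte markers 2 exceeded 1 CPM everywhere, TTR had no count, and their summed level was 88.9 and 109.9 CPM in NC TuD and 85.3 and 80.1 in miR-17 TuD. Of 8 blood cell markers 1 exceeded 1 CPM everywhere.

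Most transcripts differed little between the arms. Of 12139 genes tested, 274 were called at an adjusted p below 0.05 (2.26%), 185 higher with the miR-17 decoy (1.52%) and 89 lower (0.733%). In size the 274 changes had a median of 0.22 (log2), and 198 of them were below 0.32. A change of 1.5-fold or more was reached by 9 genes in each direction. The arms of every called gene did not overlap in CPM, which also holds for 42.2% of all genes tested. The number of calls differed between settings: 116 genes (0.869%) were called when all 10 libraries shared 1 fit, 269 (2.22%) by limma voom and 9 (0.0659%) from the deposited log2 values. DESeq2 called 71 (1.83% of the 3877 genes left by its independent filtering), and 67 without that filtering (0.439%). With edgeR, 148 genes were called without miR-17 TuD replicate 1 and 175 without miR-17 TuD replicate 2, and 81 of the 274 were called without each library in turn.

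Transcripts with a strong site for the family stood apart by their counts. Of 659 tested genes with an 8mer, 61 were higher and 3 lower, so 9.26% were higher against 0.876% of the 8219 genes with no 8mer or 7mer (72 higher, 54 lower). These 61 are 33.0% of all 185 higher calls. The median change was 0.05 with an 8mer and -0.00303 with no 8mer or 7mer. Of the 45 genes with 2 or more 8mers, 8 were higher and none lower, with a median of 0.11. Weaker kinds of site showed less: 44 of 2409 genes with a 7mer-m8 as their best site were higher and 26 lower (median 0.00179), and 8 and 6 of 773 with a 7mer-A1. Over 8mers and 7mer-m8 sites together the median stood 0.01 above that of genes with no 8mer or 7mer. This difference is smaller than most single changes named here.

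The libraries of each arm lay on the same side. The median deviation of 8mer genes from their mean over the libraries was taken relative to genes with no 8mer or 7mer. It was -0.01 and -0.04 in NC TuD and 0.02 and 0.02 in miR-17 TuD. The median was lower in longer 3′UTRs, with the genes in 4 bins of 3′UTR length. In the shortest bin (up to 591 bases) 7 of 30 genes with an 8mer were higher and their median was 0.15. In the middle bins (592 to 1386 and 1387 to 2748 bases) the medians were 0.10 and 0.08, with 10 of 73 and 17 of 175 higher. In the longest bin (from 2749 bases) the median was 0.02, with 27 of 381 higher. Genes with no 8mer or 7mer had medians of 0.00853, -0.00369, -0.00862 and -0.02 in the same bins.

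The low share among 7mer-m8 genes was not even. Many of these 7mers sit inside a conserved run of the Alu repeat, which accounts for 1455 of the 3766 7mer-m8 sites (38.6%). Among 703 genes whose every 7mer-m8 lay in that run, 3 were higher and 8 lower (0.427% higher). With no 8mer or 7mer, 0.876% were higher. Among 1400 genes with no 7mer-m8 in it, 37 were higher and 13 lower (2.64% higher), with a median of 0.01. This split was chosen after the data were seen. Sites of 9 other microRNAs were searched in the same way. Among genes with no miR-17 8mer or 7mer, the medians of genes with and without a site for each were compared. They differed by -0.02 to 0.000734 for miR-18a, miR-19a, miR-92a, miR-302a, miR-16, miR-21, let-7a, miR-221 and miR-122. The share called higher lay between 0.464% and 1.59%.

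**Figure D2:**
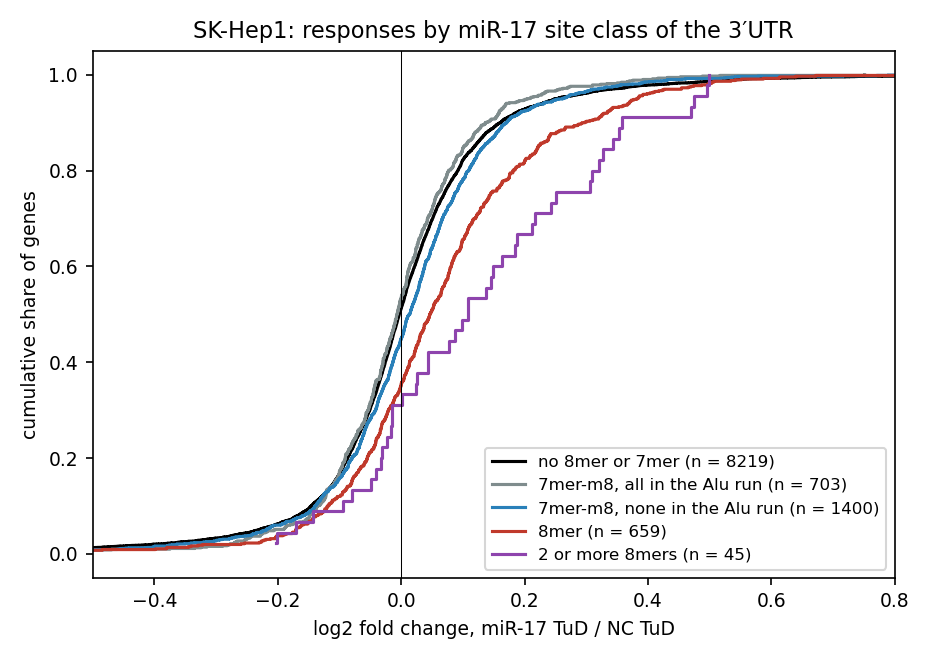
Cumulative share of tested genes (vertical axis) against log2 fold change, miR-17 TuD over NC TuD in SK-Hep1 (horizontal axis), by the best miR-17 site in the longest 3′UTR, with the number of genes in the key. The curve of 8mer genes (median 0.05) lies to the right of that of genes with no 8mer or 7mer (median -0.00303), the 45 genes with 2 or more 8mers lie farthest right (median 0.11), and genes whose 7mer-m8 sites are all in the Alu run have a median of -0.01.

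Reported and predicted targets of the family rose in part. They were listed with earlier results of these data known, so the counts of the list are no independent test. Of 72 tested members of a target list, 20 rose, none fell and 52 did not pass the test, with a median of 0.13 against 0.000168 over all genes, and 70 of the 72 carry an 8mer or 7mer-m8. Without each library in turn, 16 to 21 rose and the median was 0.09 to 0.14, and with all libraries in 1 fit 13 rose. Besides those named, risers included SQSTM1, the autophagy receptor p62 (534 and 535 CPM, then 645 and 598, 0.22 ± 0.03), and RHOC, a small GTPase of cell motility (261 and 272, then 312 and 312, 0.23 ± 0.03). CDKN1A, the cyclin-dependent kinase inhibitor p21 with 2 7mer-m8 sites, moved from 550.5 and 539 to 618 and 603 CPM (0.17 ± 0.03, edgeR adjusted p = 0.000249). LIMK1, a kinase that stabilises actin filaments, moved from 64.4 and 66.3 to 83.4 and 80.5 CPM (0.33 ± 0.05). The glycolytic enzyme gene PFKP rose by 0.16 ± 0.03 and ATG16L1, which scaffolds autophagosome formation, by 0.40 ± 0.07.

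Smaller or less abundant risers on the list were F3, the coagulation starter tissue factor (0.33 ± 0.06), PLEKHA3 (0.47 ± 0.09), PKD2, a polycystin channel (0.32 ± 0.07), the kinase gene JAK1 (0.16 ± 0.04), TMEM127 (0.27 ± 0.06) and EPHA4, an ephrin receptor (0.47 ± 0.11). Several textbook targets did not pass. E2F1, an activator of S phase genes, was at 60.6 and 66.2 CPM in NC TuD and 69.4 and 67.9 in miR-17 TuD, without overlap of the arms (0.11 ± 0.06, edgeR adjusted p = 0.423). BCL2L11, the cell death gene BIM, holds an 8mer but was at 6.23 and 6.70, then 6.08 and 5.94 CPM (-0.11 ± 0.17, edgeR adjusted p = 0.865). The retinoblastoma family genes RB1, RBL1 and RBL2 were at 0.00, 0.05 and -0.00.

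In the TGF-beta and BMP pathway, ligands bind paired receptors that phosphorylate SMAD proteins, which enter the nucleus and switch on genes of the matrix and of cell adhesion. Of 23 tested receptors, co-receptors, SMADs and SKI repressors, TGFBR2 and RGMB rose, none fell, and the list median was -0.07. The partner receptor gene TGFBR1 was at -0.19 ± 0.08, the BMP receptor gene BMPR2 at -0.13 ± 0.05 and the activin receptor gene ACVR2B at -0.30 ± 0.14, none past the test. SMAD2, SMAD3 and SMAD4, the signal carriers, were at -0.12, -0.08 and -0.11, and the inhibitor SMAD7 at 0.13. Of 22 genes that respond to the pathway, 5 rose and none fell, with a median of 0.09.

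LOX, which cross-links collagen, was among these responders and moved from 265 and 269 to 318 and 306 CPM (0.22 ± 0.03, edgeR adjusted p = 5.63e-05). CYR61, a matrix-bound growth regulator, moved from 861 and 879 to 966 and 947 CPM (0.14 ± 0.02), and fibronectin (FN1), a major matrix protein, from 6045 and 6081 to 6796 and 6420.1 (0.12 ± 0.02). THBS1, which activates latent TGF-beta, rose by 0.08 ± 0.02. The inhibitor of differentiation genes ID1, ID2 and ID3, which BMP signals raise, were at -0.11, -0.24 and 0.03 and did not pass. Without miR-17 TuD replicate 1, 3 responders rose in place of 5, and with all libraries in 1 fit 2 did.

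NF-kappaB is a transcription factor of inflammation. Of 15 tested cytokine genes that it drives, 6 rose, none fell and 9 did not pass, the median was 0.30, and 14 of 15 lay above 0. IL1B, a fever cytokine, had 361 and 342 CPM in NC TuD and 446 and 418 in miR-17 TuD (0.30 ± 0.03, edgeR adjusted p = 4.47e-07). CXCL1, a chemokine related to IL8, had 194 and 200.2, then 255 and 238 CPM (0.32 ± 0.04), and CXCL2 11.1 and 11.2, then 17.95 and 14.95 CPM (0.56 ± 0.12). In each of these genes both miR-17 TuD libraries were above both NC TuD libraries. IL6, an inducer of the acute phase response, had 28.2 and 26.5, then 38.5 and 35.4 CPM (0.43 ± 0.08), and LIF, of the same cytokine family, rose by 0.23 ± 0.04. IL8 and LIF hold an 8mer, whereas IL1B, CXCL1, CXCL2 and IL6 hold none of the 4 kinds of site. Reads that fit both CXCL1 and CXCL2, which are close copies, are uncertain.

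Adhesion, feedback and survival genes of the same factor rose in 5 of 17, with none lower and a median of 0.13. ICAM1, an adhesion receptor for leukocytes, had 81.8 and 79.5 CPM, then 107 and 98.9 (0.35 ± 0.05, edgeR adjusted p = 4.47e-05). IER3, a survival gene, had 183 and 188, then 227 and 210.4 CPM (0.23 ± 0.04). SOD2, the mitochondrial superoxide dismutase gene, rose by 0.25 ± 0.05, TNFAIP3, which shuts the pathway off, by 0.25 ± 0.05, and the subunit gene NFKB2 by 0.20 ± 0.05. The inhibitor gene NFKBIA was at 0.13 and NFKB1 at 0.12, without passing. Of the risers, SOD2 holds an 8mer, IER3 a 7mer-m8 and TNFAIP3 a 7mer-A1, while ICAM1 and NFKB2 hold no site. Without miR-17 TuD replicate 1, 4 of the cytokine genes and 2 of the adhesion, feedback and survival genes rose.

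Interferon-stimulated genes, which cells switch on against viruses in answer to interferons, were all above 0. Of 36 tested, 9 rose and none fell, and the median was 0.17, beside 6080 of 12139 genes above 0 in all. IRF9, a transcription factor of the interferon response that holds an 8mer, had 43.7 and 41.4 CPM in NC TuD and 53.4 and 58.1 in miR-17 TuD (0.39 ± 0.06, edgeR adjusted p = 0.000263). OAS2, a sensor of double-stranded RNA, had 65.5 and 61.1, then 74.8 and 82.8 CPM (0.32 ± 0.06), and its relative OAS1 38.3 and 35.6, then 42.4 and 50.8 CPM (0.34 ± 0.08). In both OAS genes miR-17 TuD replicate 2 was the higher library, which was also so for IFIT1, an inhibitor of foreign RNA translation (43.4 and 43.8, then 50.4 and 55.4 CPM). IFI6 rose by 0.30 ± 0.07, PARP9 by 0.30 ± 0.07, IFI35 by 0.26 ± 0.06 and the antiviral GTPase gene MX1 by 0.36 ± 0.09. Without miR-17 TuD replicate 2 only 1 of the 36 rose, while the median was then 0.14 and without each library in turn 0.14 to 0.22. With all libraries in 1 fit 3 rose.

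Of 24 tested mitosis genes 7 fell, 1 rose and 16 did not pass, 23 lay below 0, and the median was -0.10. ASPM, a spindle pole protein, had 321 and 310.3 CPM in NC TuD and 263 and 272 in miR-17 TuD (-0.24 ± 0.03, edgeR adjusted p = 2.41e-05). MKI67, the proliferation marker Ki-67, had 819 and 838, then 744 and 736 CPM (-0.16 ± 0.03), and TOP2A, which untangles DNA before division, 1155 and 1162, then 1042 and 1057 CPM (-0.14 ± 0.02). In all 3 the arms did not overlap. CENPF, a kinetochore protein, stood at -0.19 ± 0.03, the checkpoint kinase gene BUB1B at -0.21 ± 0.04, PLK1 at -0.19 ± 0.04 and the motor gene KIF11 at -0.13 ± 0.04. The member that rose, KIF23 (0.16 ± 0.04), holds an 8mer, while MKI67, CENPF and KIF11, which fell, hold a 7mer-m8. When miR-17 TuD replicate 1 was left out, 3 of the 24 fell, and with all libraries in 1 fit 4 did and none rose.

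Of 26 tested DNA replication genes 4 fell, 1 rose and 21 did not pass, and 25 lay below 0, with a median of -0.08. GINS1, of the replicative helicase, had 84.8 and 87.3, then 74.1 and 68.6 CPM (-0.27 ± 0.05), and the sliding clamp gene PCNA 318 and 333, then 299 and 291 (-0.14 ± 0.03). POLA1, the primase-linked polymerase gene, was at -0.20 ± 0.05. MCM7, of the same helicase and the host of a cluster of this microRNA family, was at -0.11 ± 0.03 (edgeR adjusted p = 0.0379). This call was lost with all libraries in 1 fit (edgeR adjusted p = 0.289) and by DESeq2 without independent filtering. RRM2, which makes deoxynucleotides, holds an 8mer and rose by 0.13 ± 0.03, while GINS4, also with an 8mer, was at -0.08 and did not pass. The number that fell was 5 without NC TuD replicate 1, 1 without NC TuD replicate 2 and 1 with all libraries in 1 fit. Leaving out miR-17 TuD replicate 1 gave 2, and leaving out miR-17 TuD replicate 2 gave 0. Repair genes of homologous recombination and the Fanconi pathway fell in 3 of 25 (median -0.08): BRCA2 (28.02 and 27.8, then 20.4 and 22.7 CPM, -0.37 ± 0.09), BRCA1 (-0.17 ± 0.05) and the helicase gene BRIP1 (-0.22 ± 0.06). Without NC TuD replicate 2 it was 1 gene, as it was without miR-17 TuD replicate 1 and with all libraries in 1 fit.

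Among 17 tested G1 genes, CDK6, the kinase partner of D cyclins, fell from 189 and 194 to 159 and 156 CPM (-0.28 ± 0.04, edgeR adjusted p = 1.76e-05) although it holds a 7mer-m8. Its activator CCND1 rose from 756 and 789.7 to 867 and 838 CPM (0.14 ± 0.03), and CDKN1A rose as given above. MYC, a driver of growth, did not pass, at 137 and 138, then 131 and 136 CPM (-0.04 ± 0.04, edgeR adjusted p = 0.779). Transcript length moved with the direction of the calls. The 89 lower genes had a median transcript of 5909 bases against 3729 for the 185 higher and 3332 for all 12060, and 50 of the 89 were among the longest transcripts (5155 bases or more, the top of 4 bins), where the median change was -0.02. Its part in the lower calls was not tested.

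Of 20 hypoxia genes 5 rose and none fell (median 0.11), among them STC1, LOX, the lactate dehydrogenase gene LDHA (0.10 ± 0.02), the glycolysis regulator gene PFKFB3 (0.21 ± 0.06) and the mitophagy gene BNIP3L (0.12 ± 0.03). When miR-17 TuD replicate 2 was left out 2 of them rose, and when NC TuD replicate 2 was left out 3 did. With all libraries in 1 fit, 2 hypoxia genes rose. Of the 5 risers, STC1 holds an 8mer, LDHA, PFKFB3 and BNIP3L a 7mer-m8, and LOX a 6mer at best. Of 22 p53-activated genes 4 rose and 1 fell (median 0.03). Among the 4 were CDKN1A, the death receptor gene TNFRSF10B (0.19 ± 0.04) and GADD45A (0.19 ± 0.05), while MDM2, which degrades p53, fell (-0.13 ± 0.03). Leaving out miR-17 TuD replicate 1 left 2 risers, as did the fit of all libraries. Of 25 autophagy and lysosome genes 4 rose and none fell (median 0.06). ATG2B (0.06), ATG5 (0.04), ATG7 (0.06) and ATG14 (0.10) hold an 8mer but were not called. The 4 that rose were SQSTM1, ATG16L1, the initiating kinase gene ULK1 (0.28 ± 0.06) and the transport adaptor gene FYCO1 (0.24 ± 0.05). Each of the 4 holds an 8mer and is also on the target list. Leaving out miR-17 TuD replicate 2 left 2.

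Immediate early genes, the first to respond to growth signals, rose in 2 of 21, IER3 and the phosphatase gene DUSP1 (0.38 ± 0.09), with a median of 0.08. Leaving out NC TuD replicate 2 gave 4 risers, and leaving out the first library of either arm gave 1. VLDLR (0.43 ± 0.11), a target with 3 7mer-m8 sites, was the 1 of 20 unfolded protein and amino acid stress genes that rose (median 0.04). Epithelial genes rose in 2 of 9, KRT19 (0.13 ± 0.03) and the tight junction gene CLDN1 (0.37 ± 0.09), and mesenchymal genes in 2 of 16, vimentin (VIM, 0.13 ± 0.02) and FN1. Without NC TuD replicate 2 no epithelial gene rose, and without either miR-17 TuD library 1 did. With all libraries in 1 fit no mesenchymal or stress gene of these lists rose and 1 epithelial gene did. None of 22 sterol and fatty acid synthesis genes, 13 microRNA processing and silencing genes, 30 ribosomal protein genes or 5 endothelial genes was called by edgeR, with medians of 0.02, -0.07, 0.00422 and 0.06. At an unadjusted p below 0.05 there were 1 sterol gene and 1 ribosomal gene above 0 and 2 microRNA processing genes below 0, and DESeq2 without independent filtering called none of these lists' members. DICER1 and AGO2, which make and use microRNAs, were at -0.16 and -0.14.

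**Figure D3:**
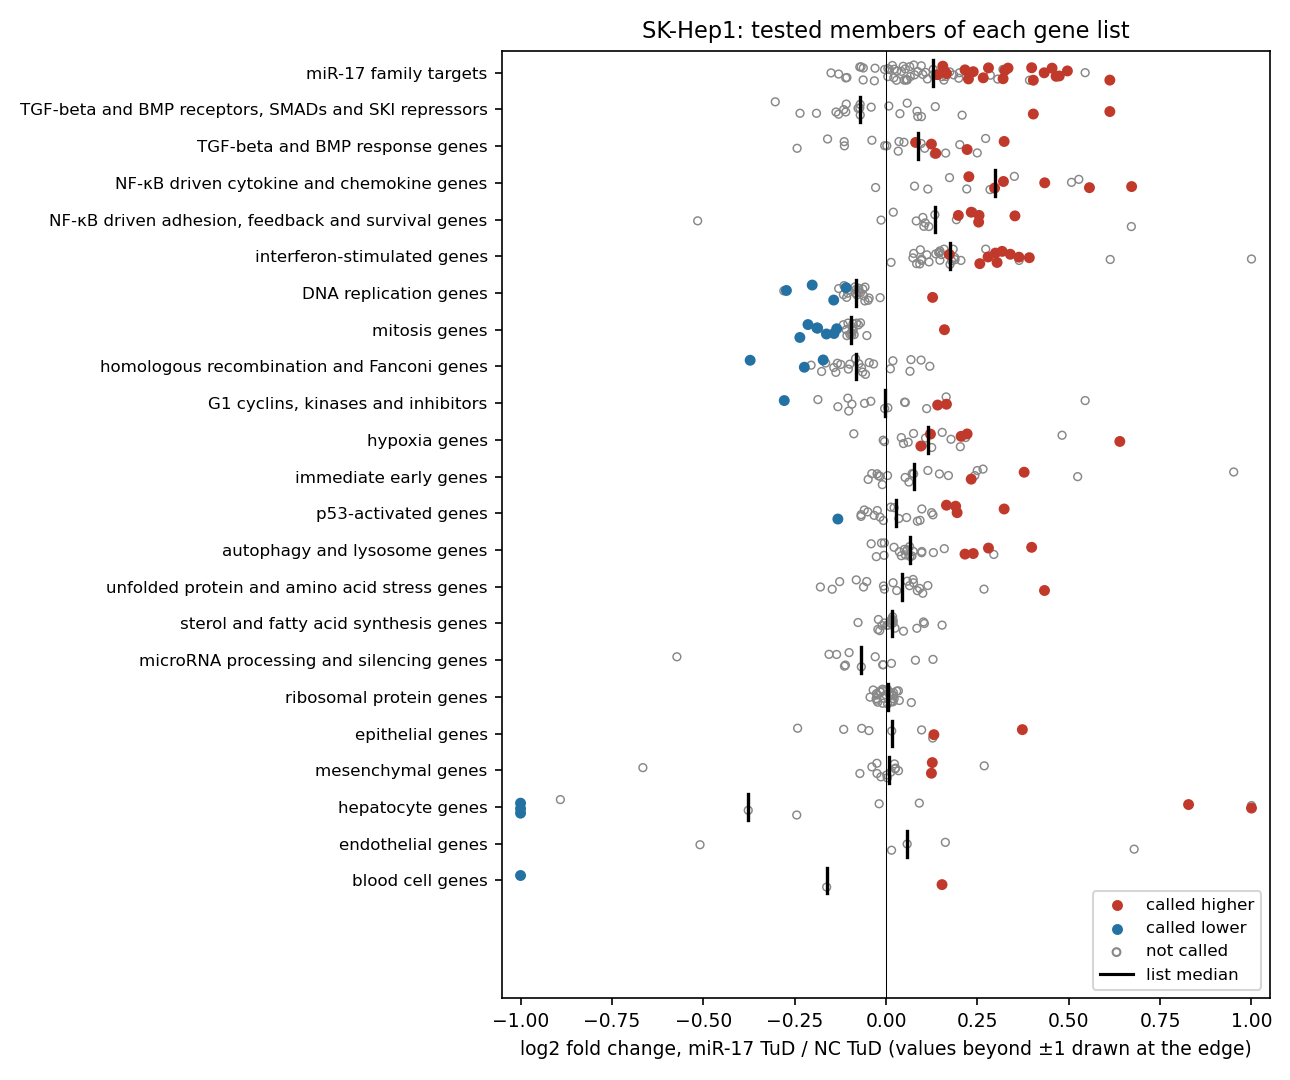
Log2 fold change, miR-17 TuD over NC TuD in SK-Hep1 (horizontal axis), of each tested member of 23 gene lists (rows), filled red where called higher, filled blue where called lower and open where not called, with a black bar at the list median. The 9 members beyond 1 in size are drawn at the edge. The 36 interferon-stimulated genes all lie right of 0, and 23 of 24 mitosis genes lie left of it.

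The largest changes outside these lists were in genes of low or middle abundance. EFR3B went from 6.88 and 5.64 to 10.6 and 11.4 CPM (0.82 ± 0.15), and GPR137B, a lysosomal membrane protein, from 8.96 and 9.61 to 17.9 and 13.95 (0.77 ± 0.13). SEMA7A, a membrane-anchored semaphorin with an 8mer, went from 22.2 and 24.5 to 36.4 and 32.3 CPM (0.55 ± 0.08), and CENPQ, an inner kinetochore gene with an 8mer, from 29.8 and 30.04 to 46.1 and 41.1 (0.54 ± 0.07). ALDH1A1, which makes retinoic acid, had 34 counts over the NC TuD arm and 71 over the miR-17 TuD arm, which are in a ratio of 2.24 (95% exact interval 1.47 to 3.47, counting error only). Its call was lost without any 1 library. Among decreases, CELSR2, a planar polarity cadherin, fell from 14.3 and 14.2 to 9.43 and 8.66 CPM (-0.66 ± 0.12, edgeR adjusted p = 0.00153). The zinc finger genes ZNF460, ZNF346 and ZFP1 stood at -0.70 ± 0.19, -0.40 ± 0.11 and -0.33 ± 0.09, LMBR1L at -0.36 ± 0.10, the homeobox gene SIX4 at -0.35 ± 0.10 and MAMLD1, which holds an 8mer, at -0.33 ± 0.09. These 6 had edgeR adjusted p from 0.0437 to 0.0484, and each lost its call without at least 2 of the libraries in turn, as did BRCA1 and BRIP1.

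Transcripts of hepatocyte proteins, which SK-Hep1 hardly expressed, were among the largest decreases. For ALB (albumin) the NC TuD libraries held 59 and 113 counts and the miR-17 TuD libraries 0 and 4, which gives a ratio of 40.2 (95% exact interval 15.4 to 149.1, counting error only). AFP (alpha-fetoprotein) had 62 and 76 counts, then 11 and 7, a ratio of 7.16 (4.37 to 12.4), and AHSG, a plasma carrier protein, 12 and 38, then 0 and 1. GPC3, a fetal liver proteoglycan, had 11 and 40, then 2 and 7. LYZ (lysozyme), listed here as a blood cell marker but abundant in HepG2, had 13 and 35, then 1 and 0 counts. For ALB, AHSG, LYZ, A2M and GPC3 the second NC TuD library held the highest count, 113 for ALB and 38 for AHSG. The apolipoprotein genes APOA1 and APOH, too low for the test, had none in miR-17 TuD, against 8 and 19 counts in NC TuD for APOA1 and 6 and 17 for APOH.

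These genes are abundant in HepG2, and their levels in SK-Hep1 were small shares of that. Over the 12 most abundant genes that are at least 20-fold higher in HepG2, NC TuD replicate 1 held a median of 0.0409% of the HepG2 NC TuD level and NC TuD replicate 2 a median of 0.104%, against 0.0189% and 0.014% in miR-17 TuD. SERPINA1, which encodes alpha-1 antitrypsin, was the highest of the 12 in each library, at 1.38% to 1.52%, and was not called. Not every liver gene fell. FGA, a fibrinogen chain, held 1 and 7 counts in the control arm and 27 and 21 with the miR-17 decoy, at a ratio of 6.42 (3.01 to 15.7), with FGB at 2 and 2, then 9 and 12 and FGG at 2 and 3, then 11 and 13. CPS1, with which the urea cycle starts, rose from 6.74 and 4.71 to 10.6 and 9.66 CPM (0.83 ± 0.16), a call lost without NC TuD replicate 2. Of 13 tested hepatocyte genes 3 fell and 2 rose, with a median of -0.38. Without each library in turn the median was -1.48 to -0.18, over the list members that each fit tested. Whether cells or RNA of another line contributed to these counts was not tested. Leaving out the 152 tested genes that are rich in HepG2 or on the hepatocyte list gave 266 calls in place of 274. Of 152 tested genes in the HepG2-rich set, 6 fell (3.95%), 3 rose (1.97%) and 143 were not called. Their median was -0.04, and over all genes 0.733% fell and 1.52% rose. In 43 of the 152 both miR-17 TuD libraries lay below both NC TuD libraries, and in 24 above.

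**Figure D4:**
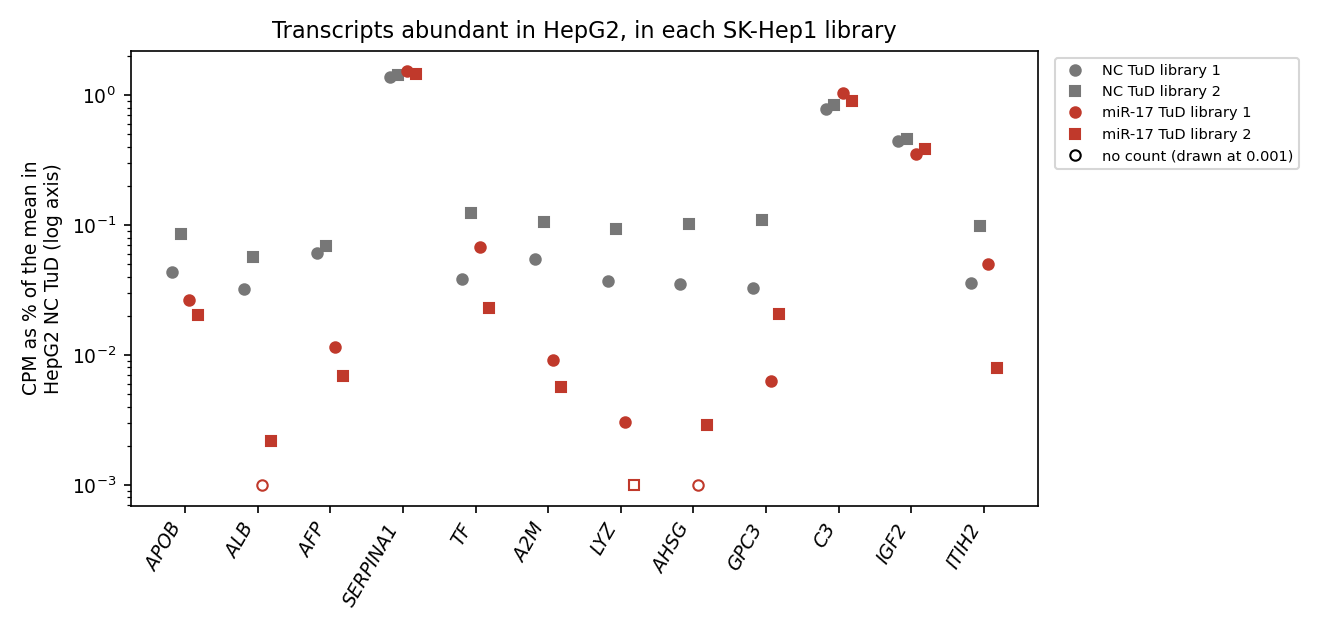
CPM of the 12 most abundant HepG2-rich genes in each SK-Hep1 library as a percentage of their mean in HepG2 NC TuD (vertical log axis), grey for NC TuD and red for miR-17 TuD, with open points drawn at 0.001 where a library has no count. In 8 of the 12 genes both grey points lie above both red points and in 2 both lie below. Of all 12139 genes tested, 20.7% had both NC TuD libraries above and 21.4% both below. SERPINA1 sits at 1.38% to 1.52% in all 4 libraries.

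The response in SK-Hep1 was set against that of HepG2, as a difference of log2 fold changes tested over all 10 libraries by edgeR. The difference was called for 500 of 13349 genes (3.75%), 165 higher in SK-Hep1 (1.24%) and 335 lower (2.51%), and for 66 of the 274 genes called in SK-Hep1. Without NC TuD replicate 1 or 2 of SK-Hep1 it was called for 329 (88 higher, 241 lower) and 289 (76 and 213), and without miR-17 TuD replicate 1 or 2 for 312 (89 and 223) and 266 (64 and 202). A replicate block gave 227 (55 higher, 172 lower). Of the 185 genes that rose in SK-Hep1, 89 also rose in HepG2 and 11 fell there, beside 10.7% and 8.58% of all genes in HepG2. Of the 89 that fell in SK-Hep1, 21 fell in HepG2 and 8 rose. The 61 higher genes with an 8mer were higher in HepG2 in 47 cases and lower in none, whereas the 72 higher genes with no 8mer or 7mer were higher in 16 and lower in 6. TGFBR2, RGMB and MINK1 did not differ between the lines beyond the test, with differences of 0.16 ± 0.06, -0.23 ± 0.09 and 0.07 ± 0.07.

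Several genes that rose in both lines rose less in SK-Hep1 on the log2 scale. IL8 differed by -0.86 ± 0.21 (edgeR adjusted p = 0.0104), ZNFX1 by -0.37 ± 0.07, CDKN1A by -0.24 ± 0.06, PFKP by -0.43 ± 0.08 and FYCO1 by -0.53 ± 0.09. SLFN5, an interferon-linked Schlafen gene, rose by 0.27 ± 0.06 in SK-Hep1 and by 2.48 ± 0.27 in HepG2, a difference of -2.22 ± 0.28. IL8 and SLFN5 were scarce in HepG2, with means of 1.43 and 0.638 CPM in NC TuD and 4.11 and 3.67 in miR-17 TuD. Their SK-Hep1 means were 112 and 61.5 CPM in NC TuD and 179 and 74.2 in miR-17 TuD. Others had changes of opposite sign in SK-Hep1 and HepG2. The Wnt inhibitor gene DKK1 rose in SK-Hep1 (930.1 and 931 CPM, then 1025 and 1012, 0.13 ± 0.02) and stood at -0.74 ± 0.04 in HepG2, a difference of 0.86 ± 0.05 (edgeR adjusted p = 3.46e-18). LOX was at -0.48 ± 0.07 in HepG2, a difference of 0.69 ± 0.08. SDPR, a caveolar coat gene, fell in SK-Hep1 (420.3 and 418 CPM, then 374 and 390.5) and stood at 0.72 ± 0.04 in HepG2. SYNE2, which anchors nuclei to the cytoskeleton, fell by 0.23 in SK-Hep1 and was at 0.54 ± 0.05 in HepG2. With all libraries in 1 fit, LOX and SYNE2 were still called in SK-Hep1, while DKK1 and SDPR were not (edgeR adjusted p = 0.171 and 0.145).

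ICAM1, IER3, TNFAIP3 and SOD2, which rose in SK-Hep1, were not called higher in HepG2. IER3 and TNFAIP3 fell there (-0.16 ± 0.04 and -0.14 ± 0.05), and ICAM1 and SOD2 were at -0.06 ± 0.05 and -0.00 ± 0.04 without passing. The differences were 0.38 ± 0.07 for IER3, 0.39 ± 0.08 for TNFAIP3, 0.40 ± 0.07 for ICAM1 and 0.25 ± 0.07 for SOD2. For IL1B, CXCL1 and CXCL2 the difference did not pass, and their HepG2 values have wide errors (-1.21 ± 0.82 for IL1B), while IL6 is at 0 in the HepG2 NC TuD libraries. MKI67 fell in SK-Hep1 and was at 0.21 ± 0.04 in HepG2, a difference of -0.38 ± 0.05 (edgeR adjusted p = 1.52e-06). ASPM differed by -0.29 ± 0.07, BRCA2 by -0.43 ± 0.12 and BRCA1 by -0.25 ± 0.08, while TOP2A, at -0.07 ± 0.05, did not pass.

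**Figure D5:**
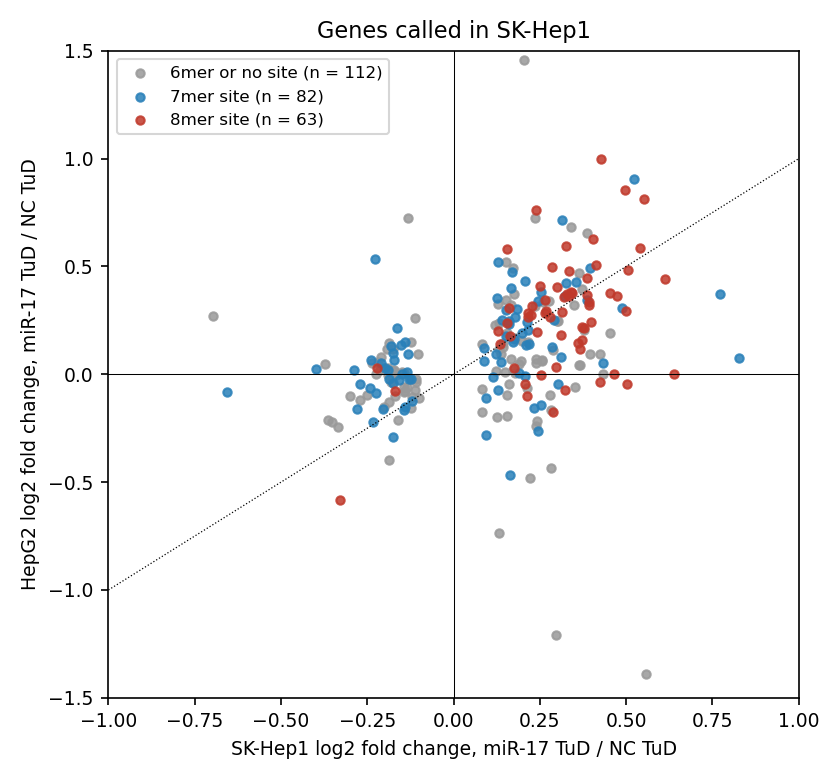
Log2 fold change, miR-17 TuD over NC TuD, in HepG2 (vertical axis) against SK-Hep1 (horizontal axis) for the genes called in SK-Hep1, coloured by the best miR-17 site of the longest 3′UTR, with a dotted line of equal change. Of the 274 genes, 257 are within the axes and 17 are not drawn. Most 8mer genes (red) lie in the upper right, where 47 of the 61 that rose in SK-Hep1 were also called higher in HepG2.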

How the data were processed

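The authors deposited whole-number counts per gene for each library, which were used as they are. They also deposited a log2 matrix of all libraries, made with limma's voom per the series' design text, and for the 13616 of its 13658 genes found among the counts its values matched log2 of the count plus 0.5 per effective library size. Per the submitters' processing notes, FastQC, STAR, SAMtools, HTSeq 0.5.4p5, limma and hg19 were used. The series' design text instead names other aligners and a mouse genome, while the symbols are human. Per the labels, libraries took 150 ng of RNA, with a kit that does not record strand, and per the design text they were read as 50 bp pairs, so overlapping and antisense genes cannot be told apart. Entries that name no gene were left out: reads outside genes were 11.6% to 11.8% of a SK-Hep1 column, ambiguous reads 0.584% to 0.586%, reads not aligned uniquely 4.47% to 4.52% and reads not aligned 2.56% to 2.87%.

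The 4 SK-Hep1 libraries alone were fitted with edgeR 4.0.16 in R 4.3.3 (filterByExpr by group, TMM, robust quasi-likelihood fit). Genes were called at a two-sided Benjamini-Hochberg adjusted p below 0.05 over the 12139 tested. The difference from HepG2 came from 1 fit of all 10 libraries. With 2 residual degrees of freedom, the spread was borrowed across genes (28.1 prior degrees of freedom). On simulated counts of 12056 genes, 78% of genes changed by 0.32 (log2) were recovered. For changes of 1.5-, 2- and 3-fold it was 94%, 98% and 100%, with 14 false calls among 199 in all. The changed genes were drawn from well-counted genes only, so recovery at low counts is unknown. Counting intervals are exact at 95% and cover counting error only. No pair of libraries differed by less than counting error (chi-square over degrees of freedom 1.4 to 2.93). Alternatives included DESeq2 1.42.0 and limma 3.58.1.

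Counts were made on hg19, and sites were read from GENCODE 29 on GRCh38. Of 19215 symbols, 18191 matched as written, 702 by an earlier name, and 322 had no match, and 79 tested genes had no 3′UTR and stay outside the site classes. Named genes are the 10 calls with the largest change in each direction that have separate arms and a mean log2 CPM of 1 or more, up to 4 called members per list (10 targets), a fixed set of 13, up to 8 called genes with an 8mer and up to 6 called genes that differ most from HepG2. Some genes are not reported here. Further members of these lists were named after their values were seen. The members, lists and tests were chosen with earlier results of these data known.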

Additional observations from a re-analysis of the deposited data

Results flagged for a closer look

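The named genes that follow responded differently in SK-Hep1 and HepG2 by edgeR's test of the difference (adjusted p below 0.05), and each value is the log2 change in SK-Hep1 minus that in HepG2. They are 29 of the 82 named genes.

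The liver transcripts were ALB (-4.74), AFP (-2.30), AHSG (-5.11), FGA (3.06) and CPS1 (0.75), beside LYZ (-5.00), a blood cell marker abundant in HepG2. Their SK-Hep1 side rests on low counts, 4 for ALB and 1 for AHSG over both miR-17 TuD libraries.

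Genes of inflammation and matrix with a higher response in SK-Hep1 were LOX (0.69), ICAM1 (0.40), IER3 (0.38), SOD2 (0.25) and TNFAIP3 (0.39), together with ALDH1A1 (0.99), LDHA (0.20) and DKK1 (0.86). The response of IL8 was lower (-0.86), as were those of SLFN5 (-2.22), ZNFX1 (-0.37), FYCO1 (-0.53), PFKP (-0.43) and CDKN1A (-0.24). IL8 and SLFN5 were scarce in HepG2 NC TuD, at means of 1.43 and 0.638 CPM.

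Among the named proliferation and repair genes, the difference did not pass for TOP2A, CENPF, GINS1, PCNA, POLA1, RRM2, MCM7 and BRIP1. The response was lower in SK-Hep1 than in HepG2 for MKI67 (-0.38), ASPM (-0.29), BRCA1 (-0.25) and BRCA2 (-0.43). The response of the p53-activated gene MDM2 was also lower (-0.23). The remaining genes were SDPR (-0.86), SYNE2 (-0.77), CELSR2 (-0.58) and ZNF460 (-0.97).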

How the results depend on the processing

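The number of genes called in SK-Hep1 was 274 and moved by over 1.5 times in some settings: 116 with all libraries in 1 fit (89 higher, 27 lower), 71 by DESeq2 (58 and 13), 67 by DESeq2 without independent filtering, 9 on the deposited log2 matrix and 148 to 330 without each library in turn. The matrix fit was limited to the SK-Hep1 columns. Of the 274, 109, 71, 67 and 9 were called in the first 4 of these. With a replicate block the count was 242 (235 of the 274). Same-numbered libraries deviated apart (correlation -0.12 over 6180 genes, 2 pairs), so the numbers are not taken as pairs, and the crossed pairing, added after seeing the data, gave 499 calls (305 higher, 194 lower). Calls that differ from HepG2 numbered 500 (165 higher, 335 lower), and 227 with a replicate block (55 and 172) and 266 to 329 without each SK-Hep1 library in turn. Genes with an 8mer or 7mer-m8 stood 0.01 above those with no 8mer or 7mer. This was 0.0495 for 8mers only, 0.0030 for 2 or more sites, 0.0493, 0.0373 and 0.0310 in the 3 shorter of 4 bins of 3′UTR length, and 0.0026 to 0.0194 without each library in turn. Of 78 named calls, 39 were kept without each library, and none turned its direction in any setting. The cause of these shifts was not tested. A fit that leaves out a library assumes that the lone library of that arm varies like the other arm. Changes under 0.32 (log2) were not simulated, so recovery of them is unknown.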

Other observations

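The 3 gene groups described first were put together after their values were seen, so no test of them was made. Of 12 tested genes of the plasminogen system and tissue factor, 6 were called higher, none lower, and the median was 0.20. Besides F3 they included PLAT, the tissue plasminogen activator (863 and 846 CPM in NC TuD and 1019 and 998 in miR-17 TuD, 0.24 ± 0.02), the urokinase gene PLAU (295 and 295, then 338 and 329 CPM, 0.18 ± 0.03), its receptor gene PLAUR (0.21 ± 0.05) and the inhibitor gene SERPINB2 (74.2 and 85.2, then 107 and 96.1 CPM, 0.35 ± 0.06). PLAT, SERPINB2 and PLAU hold no 8mer or 7mer.

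Of 11 tested genes of metallothioneins, haem and iron, 6 were called higher and none lower, with a median of 0.16. The metal-binding gene MT2A had 532 and 561 CPM and then 672 and 635 (0.26 ± 0.03), the haem oxygenase gene HMOX1 146 and 159.7 and then 206 and 189 (0.37 ± 0.04), and the ferritin heavy chain gene FTH1 1153 and 1143 and then 1307 and 1250.5 (0.16 ± 0.02). MT1E rose by 0.28 ± 0.05 and FTL by 0.08 ± 0.02, and CYBRD1 was the called member with an 8mer. The metallothionein genes are close copies, so reads that fit several of them are uncertain. Of 24 integrin and laminin subunit genes 5 were called higher. The number was 2 without NC TuD replicate 2, 0 without miR-17 TuD replicate 1 and 2 without miR-17 TuD replicate 2. It was 0 with all libraries in 1 edgeR fit and by DESeq2 without independent filtering.

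CRH, the corticotropin-releasing hormone gene, had no count in either NC TuD library and 31 in miR-17 TuD in all. Set against an assumed 3 counts over the NC TuD arm, this is 11.1-fold. The exact 95% lower limit of the ratio is 8.47, for counting error only. Sterol and fatty acid synthesis genes separated the 2 NC TuD libraries from each other. Their median deviation was 0.09 in NC TuD replicate 1 and -0.11 in NC TuD replicate 2, and 5 were called higher without the first and 2 lower without the second.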
